A study of Mus musculus with 4 samples.

Results

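Mature migratory dendritic cells are dendritic cells that have taken up antigen, matured and switched on the machinery for leaving the tissue. Cells were kept if they had 200 or more genes, 500 or more UMIs (unique molecules) and no more than 10% of UMIs from mitochondrial genes. Members were chosen by their own counts: they had at least 3 UMIs of Fscn1 and Ccr7 together, at least 3 of H2-Ab1 and at least 1 of Ccl22, Ccl5, Cacnb3 and Relb together, with no UMI of Cd3e or Cd79a and at most 1 of the C1q genes. That gave 288 of 14855 kept cells, or 1.94%. The levels of the genes in the rule are therefore a description.

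The study profiled CD45-enriched cells, mainly leukocytes, from orthotopic pancreatic tumours grown from the B6KPC3 line in C57BL/6 mice, under a title on nitrosative stress and cytotoxic T cells. Both groups carried tumours 7 days old when dosing began. The AT38 group received AT38, a compound known here by its code name, at 30 mg/kg per day in 1% carboxymethyl cellulose. The vehicle group received 1% carboxymethyl cellulose in water alone. Injections into the peritoneum were given 2 times a day for 7 days in both groups, and 2 libraries per group each pooled 4 mice. The labels give no age or sex and do not tie cells to mice, so the library was the replicate, p-values cover only how far pools differ, and fewer cells of a type cannot be told apart from a shift in the other cells of the sort.

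Maturing dendritic cells give up antigen capture, gain the chemokine receptor CCR7, which reads CCL19 and CCL21 from lymphatic vessels and lymph nodes, and rebuild their actin with fascin, the product of Fscn1. In tumours such cells carry costimulatory ligands for T cells together with restraining molecules such as PD-L1, and they secrete CCL22 and CCL17, which attract CCR4-bearing T cells. The RelB arm of NF-kB, which CD40 and related receptors engage, is a known driver of this state.

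The AT38 libraries held 30232623 and 24294215 UMIs and the vehicle libraries 24875092 and 34386076. Members were deep cells, with a median of 14032.5 and 14574 UMIs in the AT38 libraries and 15553 and 10785 in the vehicle libraries. They numbered 56 and 108 in AT38 and 46 and 78 in vehicle. No member barcode occurred in more than 1 library, while 17 barcodes were shared among all kept cells. The comparison group, other gated dendritic cells, had at most 1 UMI of Fscn1 and Ccr7 and met a type 1 gate (Xcr1 and Clec9a, 153 cells) or a type 2 gate (Cd209a, or Flt3 or Zbtb46 with Mgl2 or Clec10a, 274 cells).

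The markers named for the label are all genes of the rule, so their levels describe the selection and say nothing further about the label. Ccr7 reached 2148 and 2479 CPM (UMIs scaled to a common total of all genes) in AT38 members, against 1545 and 2605 CPM in vehicle members. Fscn1 reached 828 and 1241 CPM in AT38 members and 694 and 1086 CPM in vehicle members. Ccl22 stood at 1382 and 1432 CPM in AT38 members and 837 and 1345 CPM in vehicle members. Relb, the transcription factor, stood at 258 and 249.7 CPM in AT38 members and 158 and 247 CPM in vehicle members. In the 4 libraries of other gated dendritic cells Ccr7 averaged 6.55 ± 1.90 CPM and Fscn1 0.671 ± 0.935 CPM (SD, n = 4), where the gate capped both genes.

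Some members carried transcripts of other cells. There were 8 members with 10 or more UMIs of keratin or collagen genes, 3 in AT38 and 5 in vehicle, and they held 15.5% of all member UMIs. In AT38 they held 11.8% and 13.2% of member UMIs and in vehicle 25.5% and 13.3%, and a single AT38 cell had 247270 UMIs. That cell, 1 such cell of the first AT38 library and 2 of each vehicle library met the rule on Fscn1, with no Ccr7 UMI. Whether these cells are dendritic cells was not tested. Another 31 members had 5 or more UMIs of the neutrophil genes S100a8 and S100a9, which was 7.14% and 5.56% of AT38 members and 19.6% and 15.4% of vehicle members. Doublet scores took out 9 members at the rate used. Results that rest on such cells are given with and without the keratin or collagen cells, since 1 of those cells can outweigh many ordinary members in a sum.

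The edge of the rule was shallow. The 15 members with exactly 3 UMIs of Fscn1 and Ccr7 had Ccl22 in 46.7% of cells, and the 41 cells with 2 UMIs that otherwise met the rule had it in 41.5%.

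The share of mature migratory cells among kept cells was highest in 1 AT38 library. It was 1.53% (95% Clopper-Pearson interval 1.16 to 1.99) and 3.37% (2.77 to 4.05) in the AT38 libraries, against 1.53% (1.12 to 2.04) and 1.56% (1.24 to 1.95) in the vehicle libraries. The intervals cover counting error only. The first AT38 library lay among the vehicle libraries and the second lay above them. The means were 2.45 ± 1.30% for AT38 and 1.55 ± 0.0217% for vehicle (SD, n = 2), a difference of 0.903 percentage points (exact two-sided permutation p = 0.667, where 0.333 is the smallest this design allows). Without the second AT38 library the difference was -0.0133 points.

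Among gated dendritic cells the shares were 29.5% and 52.4% in AT38, against 38.0% and 39.4% in vehicle. Both vehicle shares lay between the AT38 ones. The means were 41.0 ± 16.2% for AT38 and 38.7 ± 0.974% for vehicle (SD, n = 2), and the exact two-sided permutation test gave p = 1. Without the second AT38 library the difference was -9.23 points, and without the first it was 13.7 points. Every cell was then thinned to 2000 UMIs, which left out 667 and 546 shallower AT38 cells and 584 and 1301 shallower vehicle cells. Of all kept cells so thinned, members were 1.44% and 2.03% in AT38 and 1.24% and 1.44% in vehicle (exact permutation p = 0.333). The first AT38 and second vehicle libraries were nearly tied, at 1.441% (43 of 2984) and 1.436% (53 of 3691), after 1 random thinning. Of gated dendritic cells so thinned, members were 35.2% and 46.6% in AT38 and 35.7% and 38.4% in vehicle, so those shares overlapped.

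**Figure D1:**
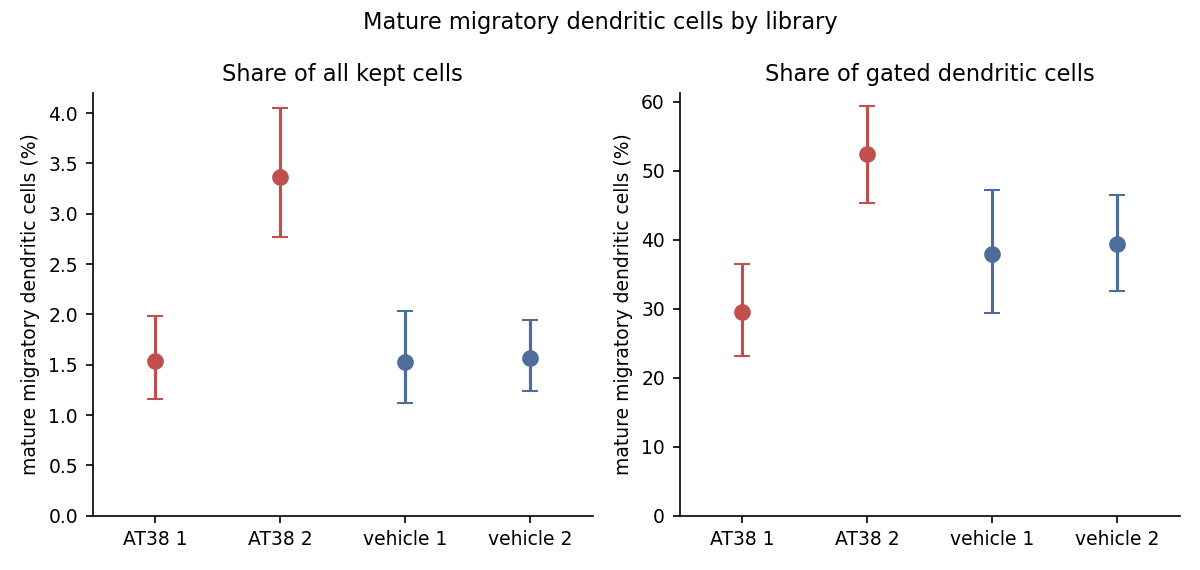
Share of mature migratory dendritic cells in each of the 4 libraries, as a percent of kept cells (left) and of gated dendritic cells (right), with AT38 in red and vehicle in blue; bars are 95% Clopper-Pearson intervals. The second AT38 library stands at 3.37% of kept cells and the other 3 libraries at 1.53% to 1.56%.

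Set beside other gated dendritic cells, members had a wide programme of their own. Of 2973 genes at 50 CPM or more in members, 76 (2.56%) were at least 4-fold higher in every library, and 6 of these belong to the rule. Of 2930 genes at 50 CPM or more in the other cells, 4 (0.137%) were at least 4-fold lower. The members were chosen in this contrast, so the counts are a description without a test. Without the keratin or collagen cells 81 of 2806 genes (2.89%) were 4-fold higher, and 59 of the 76 stayed 4-fold higher in every library. The 17 that did not include Sparc, Cpe, Fbln2 and Serpinh1, genes typical of stroma or epithelium.

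The leading genes outside the rule were of mixed kinds. Nudt17, a nudix family gene with no settled role in these cells, averaged 69.5 ± 21.5 CPM in members and 0.460 ± 0.625 CPM in other gated cells (SD, n = 4 each). Mreg, the melanoregulin of organelle transport, averaged 116 ± 29.0 CPM in members and 2.26 ± 1.33 CPM in other gated cells. Fabp5, a fatty acid carrier, averaged 1819 ± 606 CPM in members and 69.9 ± 17.7 CPM in other gated cells. Its lowest library stood 4.06 log2 units above the other cells, on a scale of log2(CPM + 1). Cd63, a tetraspanin of endosomes, averaged 538 ± 75.1 CPM in members and 22.8 ± 15.2 CPM in other gated cells. Apol7c, a mouse apolipoprotein L gene, averaged 59.0 ± 49.98 CPM in members and 0.175 ± 0.350 CPM in other gated cells. Slc4a8 (a bicarbonate transporter), Insl6 and Scin (scinderin, which severs actin) were also above 60 CPM on average in members and below 7 CPM in the other cells. These averages do not hold for every member. In members with Ccr7 and no Fscn1, Slc4a8 and Scin averaged 6.89 and 3.87 CPM, keratin or collagen cells left out.

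Genes better known from lymphocytes were among them. Tnfrsf9, the costimulatory receptor 4-1BB, averaged 227 ± 77.3 CPM in members and 7.17 ± 3.88 CPM in other gated cells. Stat4, which transmits interleukin 12 signals, averaged 169 ± 45.03 CPM in members and 18.7 ± 8.35 CPM in other gated cells. Tcf7, the T cell factor TCF-1, averaged 59.9 ± 16.3 CPM in members and 1.66 ± 2.21 CPM in other gated cells. In members with Ccr7 and no Fscn1, keratin or collagen cells left out, Tcf7 averaged 4.98 CPM. Il7r, an interleukin 7 receptor chain, averaged 147 ± 32.0 CPM in members and 19.2 ± 5.80 CPM in other gated cells. Cd3e and Cd79a are at 0 in members by the rule. The summed level of the T and NK cell marker list ranged from 31.0 to 365 CPM in members and from 18.9 to 99.9 CPM in other gated cells, and its part in these values was not tested.

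Genes of movement and cell shape were higher throughout. All 12 of the migration and cytoskeleton list considered outside the rule were higher in members in every library, against 23.1% of the 8144 genes considered. Marcksl1, an actin cross-linker of the MARCKS family, averaged 629.6 ± 152 CPM in members and 94.1 ± 28.6 CPM in other gated cells. Tmem123 averaged 1130 ± 295 CPM in members and 148 ± 18.2 CPM in other gated cells. Cxcr4, the receptor for CXCL12, differed less, at 162 ± 19.3 CPM in members and 90.1 ± 8.40 CPM in other gated cells. Ccr2, Itgal and Itgb7, which steer cells from blood into tissue, were lower in members in every library. Ccr2 averaged 41.0 ± 18.2 CPM in members and 280 ± 49.1 CPM in other gated cells.

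Members carried activating and restraining molecules together. Of 10 costimulation genes considered, 6 were higher in members in every library and 1, Cd48, was lower, beside 23.1% and 26.4% of all genes. Cd40, the receptor for T cell help, averaged 98.2 ± 23.2 CPM in members and 31.9 ± 3.18 CPM in other gated cells. Tnfsf4, the OX40 ligand, averaged 41.8 ± 22.4 CPM in members and 5.74 ± 4.82 CPM in other gated cells. Cd80 and Cd86, the ligands of CD28, stood closer, with Cd86 at 191 ± 19.3 CPM in members and 159 ± 16.4 CPM in other gated cells. Of 18 inhibitory and regulatory genes, 11 were higher in members in every library and 5 lower, the lower share being near the 26.4% of all genes. Cd274, which encodes PD-L1, averaged 386 ± 54.8 CPM in members and 113 ± 18.4 CPM in other gated cells. Il4i1, an amino acid oxidase that restrains T cells, averaged 217 ± 64.3 CPM in members and 11.1 ± 9.08 CPM in other gated cells. Cd200, the ligand of an inhibitory myeloid receptor, averaged 237 ± 72.1 CPM in members and 7.98 ± 3.81 CPM in other gated cells, and Socs2, a brake on cytokine signals, 265 ± 35.3 CPM in members and 15.5 ± 6.44 CPM in other gated cells.

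Of 10 chemokines considered, 3 were higher in members in every library and 4 lower, near the 23.1% and 26.4% of all genes, with a median of 0.01 log2 units. Ccl17 averaged 730.4 ± 113 CPM in members and 184 ± 57.4 CPM in other gated cells, and Cxcl16 519 ± 98.2 CPM in members and 159 ± 16.2 CPM in other gated cells. Ccl4, Ccl2, Ccl6 and Ccl9, chemokines of inflammatory myeloid cells, were lower in members in every library, with Ccl4 at 308 ± 77.6 CPM in members and 934 ± 130.1 CPM in other gated cells. Il15ra and Il15, whose products are shown to T and NK cells as a pair, averaged 52.1 ± 22.5 CPM and 25.0 ± 11.8 CPM in members. In other gated cells they averaged 3.88 ± 1.09 CPM and 4.75 ± 2.51 CPM. Ccl19 is listed under 2 gene IDs and is not given here. Il12b, the shared subunit of interleukins 12 and 23, varied by library: 41.7 and 212 CPM in AT38 members and 1.00 and 311 CPM in vehicle members. Only 49 members had an Il12b UMI, and 5 cells held 63.9% of its UMIs.

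Genes of antigen presentation differed by class. Of 13 MHC class II genes considered, 10 were lower in members in every library (background 26.4%), among them Ciita, the class II master regulator, at 86.3 ± 16.3 CPM in members and 158 ± 6.75 CPM in other gated cells. March1, the ubiquitin ligase that removes class II molecules from the surface, averaged 10.9 ± 4.31 CPM in members and 77.1 ± 18.02 CPM in other gated cells. Of 20 MHC class I genes, 9 were higher in members in every library, beside 23.1% of all genes, and 1 was lower. B2m, the class I light chain, averaged 3618 ± 586 CPM in members and 1989 ± 172 CPM in other gated cells. Uptake and pattern receptors were mostly lower, in 10 of 15 genes. Tlr3, a sensor of double-stranded RNA, averaged 4.37 ± 1.90 CPM in members and 64.6 ± 25.6 CPM in other gated cells. That difference came from the type 1 gate, at 141 CPM, since the type 2 gate stood at 4.61 CPM. Ly75 (DEC-205) was an exception at 139.5 ± 38.3 CPM in members and 32.3 ± 2.46 CPM in other gated cells.

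**Figure D2:**
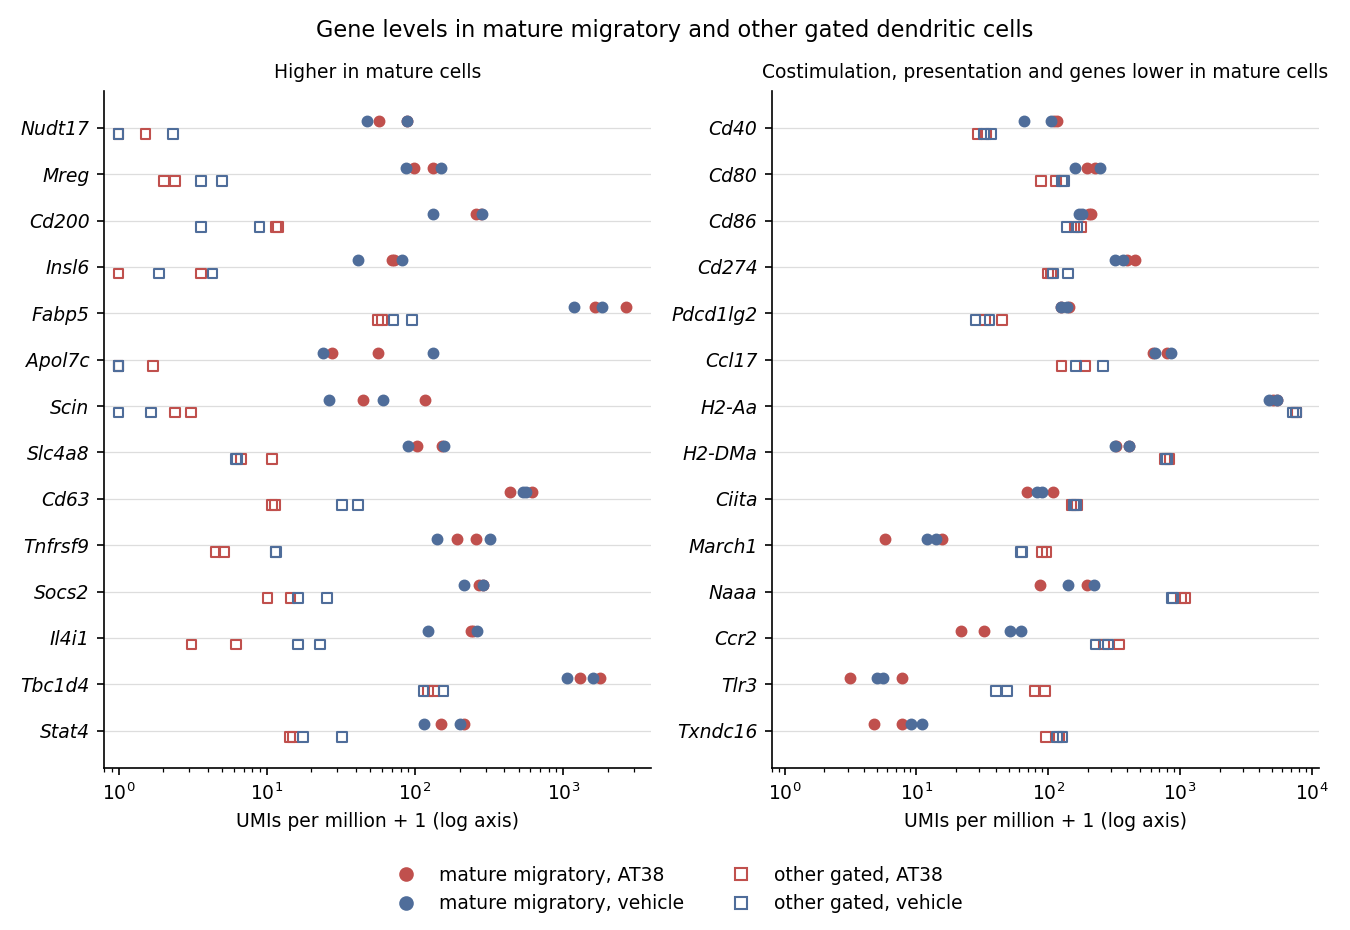
CPM plus 1, on a log axis, of 28 genes in mature migratory cells (filled circles) and other gated dendritic cells (open squares), 1 mark per library, AT38 in red and vehicle in blue. The genes on the left, such as Fabp5 at 1819 ± 606 CPM in members and 69.9 ± 17.7 CPM in other gated cells, stand apart in every library, whereas Cd86 differs little.

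Most genes of NF-kB signalling were higher in members. Of 18 NF-kB and CD40 signalling genes considered, 15 were higher in members in every library, again beside 23.1% of all genes, and 1, Cyld, was lower. Their median difference was 0.79 log2 units, against -0.03 over all genes considered. Birc2, which restrains the RelB arm, averaged 336 ± 35.1 CPM in members and 61.5 ± 16.2 CPM in other gated cells. Traf1, an adaptor of 4-1BB and CD40, averaged 467 ± 81.5 CPM in members and 183 ± 31.2 CPM in other gated cells. Nfkb2, the partner of RelB, averaged 125 ± 19.0 CPM in members and 46.8 ± 6.45 CPM in other gated cells. Nfkbia, the inhibitor that NF-kB itself induces, averaged 1708 ± 307 CPM in members and 786 ± 114 CPM in other gated cells. Of 16 survival and death genes, 7 were higher in members in every library and 4 lower, with a median difference of 0.05 log2 units.

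Promoters of this list are shown because so many of its genes were higher together, beside promoters of genes at least 4-fold higher in members. RefSeq promoters on GRCm38.p6, from 250 bases before to 50 bases after the start, were searched on both strands for GGG followed by any 3 bases and then TTCC, a loose form of the NF-kB motif, whose reverse complement may overlap it. It occurred in 5.56% of 32851 promoters and in 12 of 21 promoters of the NF-kB and CD40 signalling list (57.1%). It occurred in 8 of 75 promoters of the genes at least 4-fold higher in members (10.7%, with 59 of the 76 genes matched to RefSeq). Counted by gene, the motif occurred in 6.31% of 27025 genes, 9 of 17 on the list and 7 of 59 at least 4-fold higher. The list was chosen for NF-kB signalling, so its share describes that choice and is no result about the members. Of these last genes with a match, Cxcl1, Inf2 and Tm4sf1 were not 4-fold higher without keratin or collagen cells, and no share was taken without those cells. All 5 promoters below were shown with a match. Nfkb2, Nfkbia and Rel are of the list, and Tnfrsf9 and Tbc1d4 of the 4-fold higher genes. Cyld, the list gene lower in members, also has a match. Of the 5 below, Nfkb2 lies at chr19:46304487-46304786 (plus strand), Nfkbia at chr12:55492598-55492897 (minus), Rel at chr11:23770920-23771219 (minus), Tnfrsf9 at chr4:150927749-150928048 (plus) and Tbc1d4 at chr14:101609142-101609441 (minus). Capitals mark the matches, whose first bases lie at -38 and -11 in Nfkb2, -29 in Nfkbia, -91 in Rel, -43 in Tnfrsf9 and -73 in Tbc1d4, relative to the start. A match describes the letters only.
Nfkb2: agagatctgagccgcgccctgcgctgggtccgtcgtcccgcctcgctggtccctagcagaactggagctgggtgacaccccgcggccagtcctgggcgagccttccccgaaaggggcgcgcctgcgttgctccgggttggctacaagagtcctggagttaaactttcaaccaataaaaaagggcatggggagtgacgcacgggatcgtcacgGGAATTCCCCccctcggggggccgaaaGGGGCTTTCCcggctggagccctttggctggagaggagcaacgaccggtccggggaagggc
Nfkbia: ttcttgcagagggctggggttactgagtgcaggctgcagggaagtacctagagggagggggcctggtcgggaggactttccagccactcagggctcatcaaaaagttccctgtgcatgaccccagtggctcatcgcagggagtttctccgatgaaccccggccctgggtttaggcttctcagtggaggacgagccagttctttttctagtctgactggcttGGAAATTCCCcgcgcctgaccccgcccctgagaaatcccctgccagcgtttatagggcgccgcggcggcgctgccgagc
Rel: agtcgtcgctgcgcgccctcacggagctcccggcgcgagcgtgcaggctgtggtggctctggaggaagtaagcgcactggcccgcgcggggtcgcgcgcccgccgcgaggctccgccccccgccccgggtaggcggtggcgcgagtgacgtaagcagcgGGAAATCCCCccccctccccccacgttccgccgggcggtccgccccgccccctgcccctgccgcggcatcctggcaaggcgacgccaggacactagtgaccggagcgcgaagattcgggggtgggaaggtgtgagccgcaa
Tnfrsf9: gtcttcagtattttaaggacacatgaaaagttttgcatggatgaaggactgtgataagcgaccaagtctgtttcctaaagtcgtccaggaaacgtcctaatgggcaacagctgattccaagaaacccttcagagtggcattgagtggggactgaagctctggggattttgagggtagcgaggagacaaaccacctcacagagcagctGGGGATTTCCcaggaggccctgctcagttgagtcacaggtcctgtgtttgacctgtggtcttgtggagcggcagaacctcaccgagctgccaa
Tbc1d4: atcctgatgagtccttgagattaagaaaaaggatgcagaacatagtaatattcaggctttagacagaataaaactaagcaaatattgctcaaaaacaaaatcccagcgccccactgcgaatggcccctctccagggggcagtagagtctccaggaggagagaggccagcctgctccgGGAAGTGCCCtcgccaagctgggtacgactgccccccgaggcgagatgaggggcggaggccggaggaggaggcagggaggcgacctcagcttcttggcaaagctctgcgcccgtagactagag

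Rel, a subunit of NF-kB, averaged 1295 ± 225 CPM in members and 657 ± 15.2 CPM in other gated cells. Tbc1d4, a regulator of vesicle traffic, averaged 1436 ± 315 CPM in members and 131 ± 18.1 CPM in other gated cells.

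Most lineage genes were lower in members than in other gated cells, in every library: 8 of 11 type 1 genes and 8 of 11 type 2 genes, beside 26.4% of all genes. Some members still carried them. Of 288 members, 102 (35.4%) had 2 or more UMIs of the type 2 genes Cd209a, Mgl2 and Clec10a alone and 6 (2.08%) had 2 or more of the type 1 genes Xcr1 and Clec9a alone. A further 5 had both and 175 (60.8%) neither. Xcr1 averaged 10.2 ± 12.7 CPM in members, against 393 CPM in the type 1 gate, which it helped to choose. Mgl2, a type 2 gene, averaged 339.5 ± 99.8 CPM in members, 41.4 CPM in the type 1 gate and 838 CPM in the type 2 gate, which it also helped to choose. Irf8, which type 1 cells need, averaged 459 ± 92.8 CPM in members, 1495 CPM in the type 1 gate and 62.6 CPM in the type 2 gate. Naaa, an acid amidase, averaged 161 ± 60.4 CPM in members and 964 ± 108 CPM in other gated cells.

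Fscn1 divided the members. Both Fscn1 and Ccr7 were detected in 190 members, Ccr7 without Fscn1 in 88 and Fscn1 without Ccr7 in 10. The cells with both were 53.6% and 73.1% of AT38 members, and 23 of 46 and 58 of 78 vehicle members had both, so the libraries of the groups overlapped. The median was 13251 UMIs in cells with both and 13953 in cells with Ccr7 alone. By library the widest gap was in the first vehicle library, at 13800 with both and 18554 with Ccr7 alone, and the part of depth in the split was not tested. The split by a rule gene is a description. All CPM values and gene counts of the split leave out the keratin or collagen cells, whereas counts and shares of cells include them. Of 2740 genes at 50 CPM or more, 47 (1.72%) were at least 4-fold higher with Fscn1 in every library, and 17 of 2790 (0.609%) were at least 4-fold higher without it.

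Some lists were higher in cells with Fscn1 and others were not. Socs2 averaged 441 ± 55.7 CPM with Fscn1 and 40.1 ± 11.04 CPM without it (SD, n = 4 libraries each). Slc4a8 averaged 235 ± 29.1 CPM with and 6.89 ± 6.00 CPM without, and Tnfrsf4, the OX40 receptor, 90.9 ± 21.1 CPM with and 3.91 ± 3.57 CPM without. Snn, which encodes stannin, had a UMI in 48.4% of cells with Fscn1 and in 0 of the 88 without, which allows a share of cells with a UMI of up to 3.41% and does not limit how many express it. Ccl22, a gene of the rule, averaged 2145 ± 353 CPM with and 499 ± 211 CPM without, and Il4i1 347 ± 58.9 CPM with and 101 ± 21.7 CPM without. Of the lists, 11 of 12 migration genes, 13 of 20 MHC class I genes and 9 of 18 NF-kB and CD40 genes were higher with Fscn1 in every library, against 22.6% of 5743 genes considered. So were 2 of 10 costimulation genes, which is near that share, and 1 of 10 chemokines, which is below it.

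Cells without Fscn1 carried more of the genes of type 2 dendritic cells. Mgl2 and Clec10a, lectins of type 2 cells, averaged 93.2 ± 45.1 and 33.6 ± 10.8 CPM with Fscn1, and 959 ± 190.3 and 294 ± 45.2 CPM without it. Type 2 genes alone reached 2 UMIs in 17.9% of cells with Fscn1 and 77.3% of cells without. Plet1 averaged 127 ± 31.0 CPM with and 840.3 ± 299 CPM without, and Cdh1, the adhesion molecule E-cadherin, 12.3 ± 6.43 CPM with and 174 ± 25.3 CPM without. Top2a, which untangles DNA in dividing cells, averaged 15.9 ± 11.1 CPM with and 129 ± 57.8 CPM without. Higher without Fscn1 in every library were 12 of 14 type 2 lineage genes, 11 of 13 proliferation genes and 10 of 13 MHC class II genes, against 25% of genes considered. Cd80 and Cd86 did not separate the groups: Cd80 averaged 237 ± 41.0 CPM with Fscn1 and 249 ± 53.2 CPM without.

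**Figure D3:**
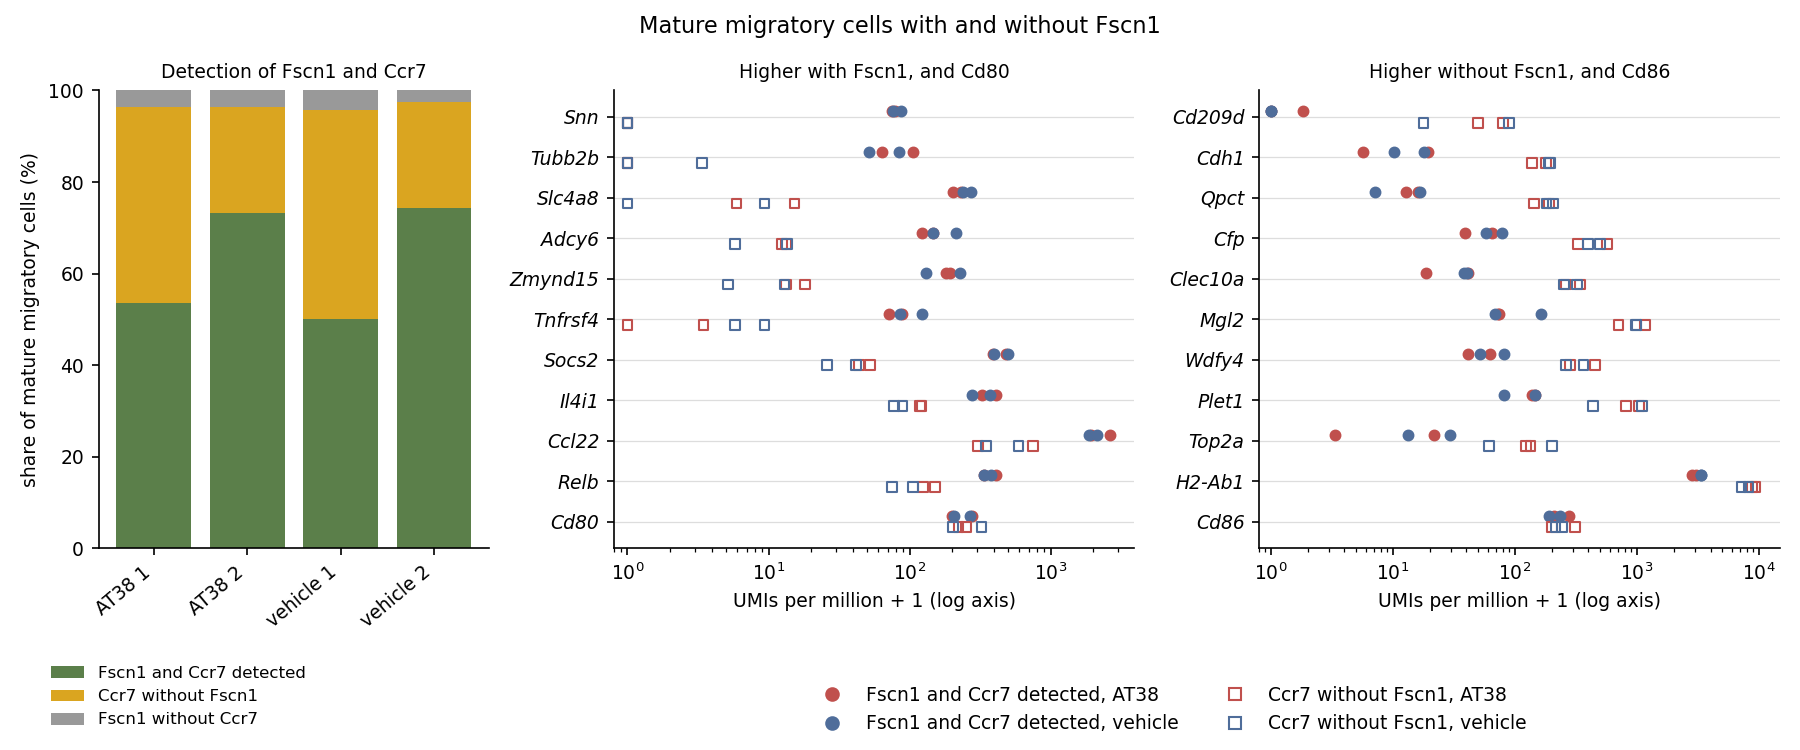
Left, percent of mature migratory cells in each library by detection of Fscn1 and Ccr7. The other panels leave out the keratin or collagen cells. Middle and right, CPM plus 1 on a log axis in members with Fscn1 and Ccr7 (filled circles) and with Ccr7 alone (open squares), 1 mark per library, AT38 in red and vehicle in blue; Socs2 averages 441 CPM with Fscn1 and 40.1 CPM without, and Mgl2 93.2 CPM with and 959 CPM without.

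AT38 was compared with vehicle in members by edgeR's quasi-likelihood test on UMIs summed per library. No gene of 8010 passed an adjusted p of 0.05 (0%). At an unadjusted p under 0.05 there were 257, and DESeq2 called 10. With 1 library left out the count ran from 0 to 84, with 8 genes without the first AT38 library and 84 without the second. The lowest adjusted p was that of Hspa1a, which encodes an inducible Hsp70 chaperone. It stood at 56.3 and 62.6 CPM in AT38 members, against 215 and 228 CPM in vehicle members (log2 fold change -1.83, SE 0.22, edgeR adjusted p = 0.229). Its neighbour Hspa1b stood at 100.3 and 48.7 CPM in AT38 members and 292 and 258 CPM in vehicle members (-1.85, SE 0.34, edgeR adjusted p = 0.904). Both genes were lower in both AT38 libraries.

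Without the keratin or collagen cells, a setting chosen after seeing the data, 2 of 6884 genes passed (0.0291%) and both fell. Hspa1b stood at 61.3 and 49.9 CPM in AT38 members and 335 and 287 CPM in vehicle members (log2 fold change -2.42, SE 0.21, edgeR adjusted p = 0.00139). Hspa1a stood at 37.0 and 71.5 CPM in AT38 members and 259 and 256 CPM in vehicle members (-2.11, SE 0.27, edgeR adjusted p = 0.0380). The edgeR adjusted p of Hspa1a was 0.103 when the second vehicle library was also left out, and that of Hspa1b stayed at 0.00146 or below with any 1 library out. The count of genes past the threshold was 37, 20, 10 and 2 without the first AT38, second AT38, first vehicle and second vehicle library. The genes lie side by side on chromosome 17 (GRCm38), at chr17:34969190-34972156 for Hspa1a and chr17:34956436-34959238 for Hspa1b, and are close copies, so reads may be split between them uncertainly.

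The 2 genes came from part of the cells. An Hspa1b UMI was found in 21.4% and 20.4% of AT38 members and 43.5% and 44.9% of vehicle members, and an Hspa1a UMI in 33.9% and 25.0% of AT38 members against 41.3% and 35.9% of vehicle members. The 5 highest cells held 46.1% of the Hspa1b UMIs and 43.7% of the Hspa1a UMIs. In other gated dendritic cells Hspa1b had a log2 fold change of -1.01 and Hspa1a of -1.15, with edgeR adjusted p of 0.734 and 0.843. The difference between the classes, without keratin or collagen cells, was -1.41 for Hspa1b (SE 0.32, edgeR adjusted p = 0.359) and -1.05 for Hspa1a (SE 0.44, edgeR adjusted p = 1).

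**Figure D4:**
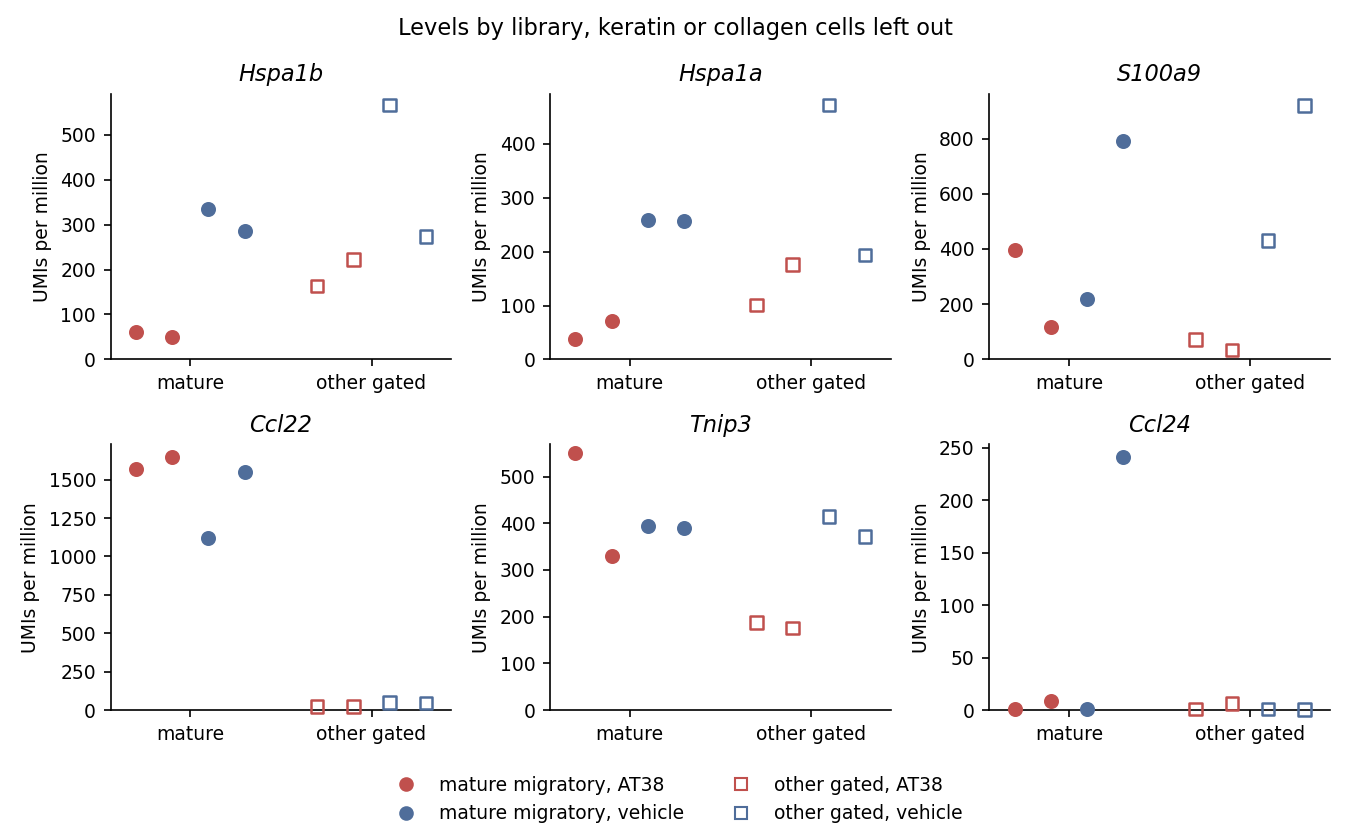
CPM of 6 genes by library, with keratin or collagen cells left out, in mature migratory cells (filled circles) and other gated dendritic cells (open squares), AT38 in red and vehicle in blue. Hspa1b is at 61.3 and 49.9 CPM in AT38 members and 335 and 287 CPM in vehicle members, while Ccl24 is high in a single vehicle library.

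Type I interferon genes were mostly higher in AT38 members, and none passed the test. Of 17 type I interferon genes tested, 16 had a log2 fold change above 0, against 50.6% of all genes tested, and 10 had both AT38 libraries above both vehicle libraries, against 11.5% of all genes. The median log2 fold change was 0.61, beside 0.00 over all genes, and without keratin or collagen cells it was 0.54, again with 10 of 17 not overlapping. Isg15, a ubiquitin-like interferon product, stood at 398 and 170.0 CPM in AT38 members and 78.4 and 122 CPM in vehicle members (log2 fold change 1.56, SE 0.47, edgeR adjusted p = 0.999). Zbp1, a nucleic acid sensor, stood at 107 and 54.0 CPM in AT38 members and 30.1 and 43.0 CPM in vehicle members. In both genes the first AT38 library was the highest of the 4, and 5 cells held 33.7% of the Isg15 UMIs.

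Interferon gamma and class I genes were also mostly higher, with none past the test. Of 21 interferon gamma genes 19 were above 0, against 50.6% of all genes tested, with a median of 0.58. Both AT38 libraries were above both vehicle libraries for 8 of them, against 11.5% of all genes. Without keratin or collagen cells 14 of 20 were above 0 and the median was 0.34. In that setting 6 did not overlap on the higher side and 1 on the lower, against 11.5% and 22.1% of all genes. Cxcl9, a chemokine that draws CXCR3-bearing T cells, stood at 318 and 219 CPM in AT38 members and 108 and 201 CPM in vehicle members (0.85, SE 0.34, edgeR adjusted p = 0.999). Of 20 MHC class I genes 17 were above 0, with a median of 0.30, or 0.14 without those cells. Psmb9, an immunoproteasome subunit, stood at 463 and 452 CPM in AT38 members and 295 and 369 CPM in vehicle members.

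No gene of the mature state passed the test with AT38. Migration genes were above 0 in 14 of 15, with a median of 0.28, and NF-kB and CD40 genes in 17 of 19, with a median of 0.23. The share above 0 among all genes tested was 50.6%. Both AT38 libraries were above both vehicle libraries for 3 migration and 4 NF-kB genes, against 11.5% of all genes, and below them for 1 gene of each list, against 19.7%. Genes of the rule were left in these counts and medians, which therefore rest partly on values that chose the members. Icam1, an adhesion molecule, stood at 220 and 221 CPM in AT38 members and 127 and 179 CPM in vehicle members. Cd274 stood at 397 and 453 CPM in AT38 members and 322 and 372 CPM in vehicle members (0.35, SE 0.20, edgeR adjusted p = 0.999). Cd40 stood at 116 and 109 CPM in AT38 members and 64.3 and 103 CPM in vehicle members. Pdcd1lg2, which encodes PD-L2, stood at 124 and 143 CPM in AT38 members and 125 and 138 CPM in vehicle members, and Ccl17 at 620 and 793 CPM in AT38 members and 857 and 652 CPM in vehicle members, so their libraries overlapped. Nos2, the inducible nitric oxide synthase, had 0 UMIs in members, which allows up to 0.619 CPM, and Ido1 was at about 1 CPM or below in every library.

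Genes of uptake were mostly lower, and none passed the test. Of 16 uptake and pattern recognition genes tested, 13 were below 0, against 49.4% of all genes. For 6 of them both AT38 libraries were below both vehicle libraries, against 19.7% of all genes. The median was -0.62, or -0.44 without keratin or collagen cells. Mrc1, the mannose receptor, stood at 21.4 and 13.9 CPM in AT38 members and 56.3 and 44.8 CPM in vehicle members (-1.50, SE 0.34, edgeR adjusted p = 0.999). Cd14 stood at 103 and 65.8 CPM in AT38 members and 153 and 204 CPM in vehicle members, and Ccr2 at 31.5 and 20.9 CPM in AT38 members and 61.3 and 50.3 CPM in vehicle members. Of 14 NRF2 targets, genes of the response to oxidants, 11 were below 0, with a median of -0.31. Both AT38 libraries were below both vehicle libraries for 7 of these targets, against 19.7% of all genes. Slc7a11, the cystine importer, stood at 233 and 225 CPM in AT38 members and 349.7 and 354 CPM in vehicle members (-0.56, SE 0.19, edgeR adjusted p = 0.999).

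Neutrophil markers were mostly lower too, with none past the test. Of 9 neutrophil markers tested 8 were below 0, against 49.4% of all genes tested, with a median of -0.85. The list summed to 1550.0 and 865 CPM in AT38 members and 1208 and 2257 CPM in vehicle members. These sums overlapped, with the first AT38 library above the first vehicle library. Clec4d, a myeloid lectin, stood at 24.8 and 24.1 CPM in AT38 members and 50.2 and 83.2 CPM in vehicle members. Cxcl2, a neutrophil attractant that myeloid cells make, stood at 1015 and 1169 CPM in AT38 members and 1631 and 2650.1 CPM in vehicle members (-0.91, SE 0.25, edgeR adjusted p = 0.999). Il23a, the private subunit of interleukin 23, stood at 4.51 and 9.62 CPM in AT38 members and 21.1 and 35.7 CPM in vehicle members, from 28 cells. The part of neutrophil transcripts in the lower values was not tested.

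Hypoxia and glycolysis genes depended on the keratin or collagen cells. All 17 tested were below 0, against 49.4% of all genes tested, with a median of -0.41. Both AT38 libraries were below both vehicle libraries for 13 of them, against 19.7% of all genes. Without those cells 12 of 17 were below 0 and 5 did not overlap, against 22.1% of all genes on that side, with a median of -0.09. Bnip3, a hypoxia-induced mitophagy gene, stood at 32.7 and 31.5 CPM in AT38 members and 69.3 and 82.3 CPM in vehicle members, a log2 fold change of -1.18, or -0.78 without those cells. The epithelial marker list summed to 205 and 1377 CPM in AT38 members and 1511 and 1383 CPM in vehicle members. The mitochondrially encoded genes likewise had 13 of 13 below 0 and a median of -0.23, or 0.00 without those cells.

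**Figure D5:**
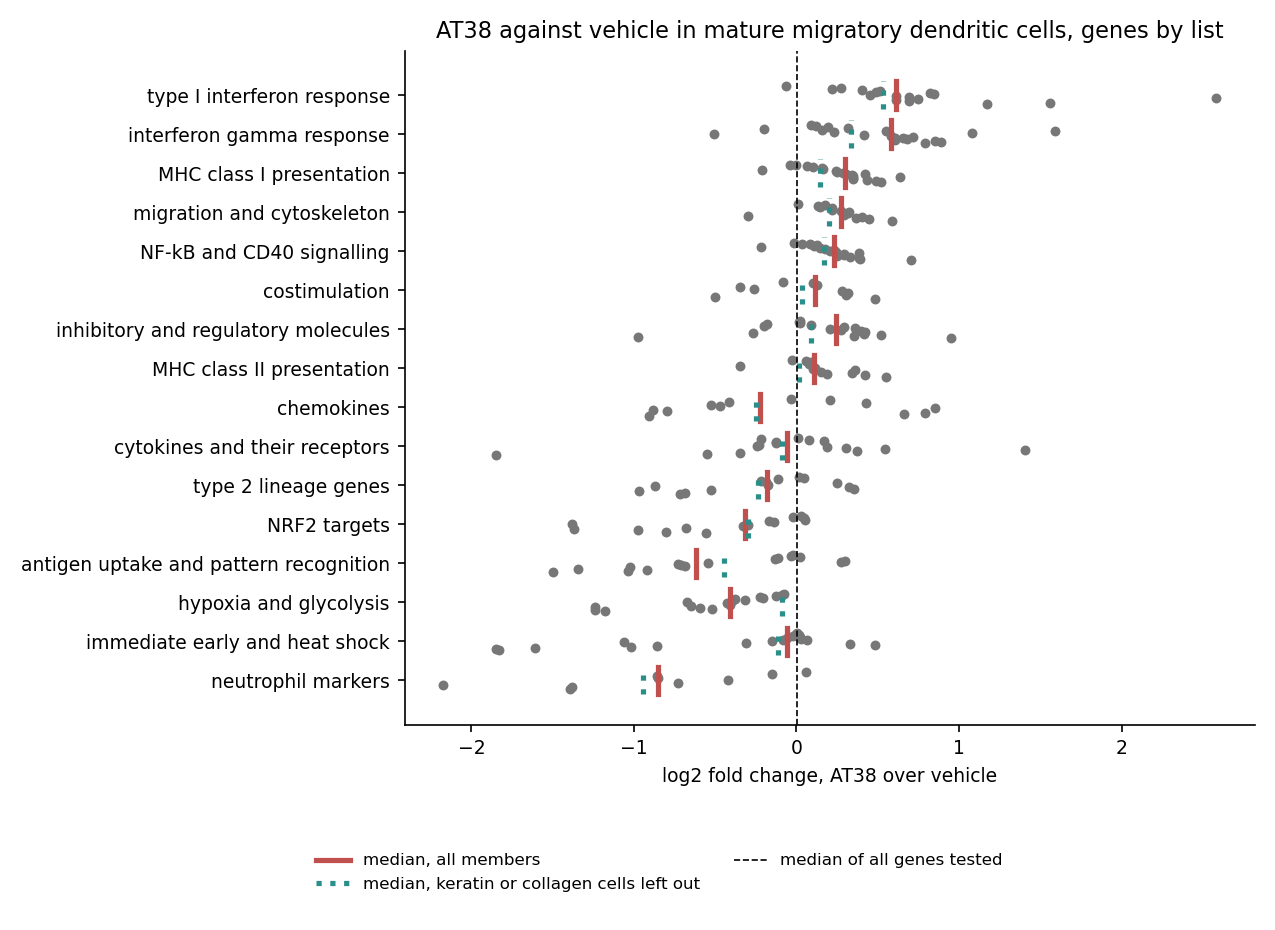
Log2 fold change of AT38 over vehicle in mature migratory cells for the tested genes of 16 lists, 1 grey point per gene, with the list's median over all members (solid) and without keratin or collagen cells (dotted); the dashed line is the median of all genes tested. The type I interferon median is 0.61 and the neutrophil marker median -0.85, and the hypoxia median is -0.41, or -0.09 without those cells. Genes of the rule are included where tested.

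A difference in AT38 effect between mature migratory and other gated dendritic cells was tested as an interaction in edgeR with a term for each library. The other class joined 54 and 45 type 1 cells with 80 and 53 type 2 cells in AT38. In vehicle it joined 22 and 32 type 1 cells with 53 and 88 type 2 cells. Library terms do not remove this difference in mix, and its part in the calls was not tested. The interaction passed for 13 of 9186 genes (0.142%), 12 with a higher AT38 effect in members (0.131%) and 1 with a lower one (0.0109%). The count was 25 without the first AT38 library, 34 without the second, 9 without the first vehicle library and 14 without the second. For 7 of them (Igfbp5, Cxcl5, Serpinh1, Timp2, Atp1b1, Gsta4 and Pcolce) too few UMIs remained for a test once keratin or collagen cells were left out. Without those cells 4 of 8612 genes passed (0.0464%): S100a9, Tnip3 and Ccl22 with a higher effect in members (0.0348%) and Ccl24 with a lower one (0.0116%). The neutrophil gene S100a9 had a log2 fold change of -0.93 in members and -3.58 in other gated cells. It stood at 397 and 118 CPM in AT38 members and 220 and 790 CPM in vehicle members, which overlapped. Other gated cells had 72.0 and 34.3 CPM of S100a9 in AT38 and 431 and 919 CPM in vehicle. Ccl22 is a gene of the rule, so its call rests on values that chose the members and is not read as a result. Ccl24 was high in the second vehicle library alone. Across these cells the count ran from 2 without the second AT38 library to 77 without the second vehicle library, and was 5 and 31 without the other two.

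Outside the rule, Tnip3 passed with and without those cells. Tnip3, an inhibitor of NF-kB signals, stood at 485 and 302 CPM in AT38 members and 310 and 345 CPM in vehicle members, and at 187 and 176 CPM in AT38 and 385 and 373 CPM in vehicle among other gated cells (difference 1.33, SE 0.24, edgeR adjusted p = 0.0472). Without keratin or collagen cells its edgeR adjusted p was 0.0304, and it became 0.247 when the first AT38 library was also left out. As a description, Ccl22 in other gated cells stood at 23.8 and 23.1 CPM in AT38 and 45.3 and 47.6 CPM in vehicle.

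Cxcl10, an interferon-induced chemokine, had opposite directions in the classes. It stood at 191 and 260.4 CPM in AT38 members and 139.7 and 134 CPM in vehicle members. In other gated cells it stood at 59.0 and 34.3 CPM in AT38 and 139 and 183 CPM in vehicle. The difference of the AT38 effects was 2.54 (SE 0.37, edgeR adjusted p = 0.0469), and without keratin or collagen cells it was 2.36 with an edgeR adjusted p of 0.743. In the type 2 gate alone 5 of 6935 genes (0.0721%) passed and fell with AT38, Cxcl10 and Tnip3 among them, and in the type 1 gate edgeR called 0 of 6251.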

How the data were processed

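Single-cell RNA of 4 pooled tumour libraries was measured with 10x Genomics chemistry, and the deposited values are whole-number UMI counts per gene and barcode. Reads were processed with Cell Ranger 3.1.0 and the build mm10, per the submitters' processing notes. The files held 18001 barcodes and 31053 genes, with no barcode under 500 UMIs. Keeping at most 10% mitochondrial UMIs set aside 3142 barcodes.

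The members and gene lists were chosen with earlier results of these data known. Counts were summed per library over members and over other gated dendritic cells. They were tested with edgeR 4.0.16 (robust quasi-likelihood, TMM scaling, filterByExpr, Benjamini-Hochberg adjustment, threshold 0.05) on R 4.3.3, with DESeq2 1.42.0 as an alternative. CPM is each gene's UMIs scaled to a common total over the summed cells. Folds of members over other gated cells used log2(CPM + 1) and a minimum mean of 50 CPM, and have no test, since the rule chose the cells by expression. Shares were compared by an exact permutation test in scipy 1.17.1. The scripts were tested on simulated data.

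Doublets were scored with scrublet in scanpy 1.11.5. Its automatic threshold called 0 to 2 barcodes per library and was not used, so the highest scores were removed at 0.8% per 1000 barcodes, as an alternative only. Other alternatives changed the cell filters, the rule's thresholds, the scaling, the low-count filter and the replicate block, and left out each library. Genes named were those past the threshold, up to 3 genes of the smallest p per list, the largest folds of members over other cells, and a set of dendritic cell genes named whatever their value. Some list genes were named for their role after their values were seen.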

Additional observations from a re-analysis of the deposited data

Results flagged for a closer look

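The AT38 effect, in log2 units, differed between mature migratory and other gated dendritic cells for 13 genes by the interaction test in edgeR. Genes of immune cells among them were Ccl22 (1.41), Tnip3 (1.33), Cxcl10 (2.54), the tetraspanin gene Cd63 (1.75) and the kinase gene Sgk1 (-1.78). The mix of dendritic cell types in the other gated class also differed between the groups, and its part in these differences was not tested. Ccl22 is a gene of the rule that chose the members, so its difference rests on values used in the choice and supports nothing. Sdc4, which encodes a syndecan, differed by 1.89. Without keratin or collagen cells Sdc4 differed by 1.42, Sgk1 by -1.06 and Cd63 by 1.18, with edgeR adjusted p of 1, 0.242 and 0.450.

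The other 7 were Igfbp5 (14.99), Cxcl5 (13.95), Serpinh1 (6.80), Atp1b1 (6.78), Gsta4 (6.64), Pcolce (6.40) and Timp2 (3.44). Fitted differences this large come from genes at or near 0 in some sums and are not bounds. The summed fibroblast markers in members stood at 2512 and 118 CPM in AT38 and 46.2 and 1227 CPM in vehicle. None of the 7 had enough UMIs for a test without keratin or collagen cells.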

How the results depend on the processing

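No gene passed for AT38 in members by edgeR, and the count was 10 at a mitochondrial maximum of 5%, 10 with DESeq2, 76 with no filter on low counts and 0 to 84 with 1 library left out. Among settings chosen after seeing the data it was 2 without keratin or collagen cells, 1 among members with both Fscn1 and Ccr7, and 3 with cells thinned to at most 5000 UMIs. The interaction count of 13 became 22 at 5% mitochondrial UMIs, 5 with at least 5 UMIs of Fscn1 and Ccr7, 4 without keratin or collagen cells, 8 after thinning to 5000 UMIs, 67 with no filter and 9 to 34 with 1 library left out. The 76 genes of the programme became 124 among members with both Fscn1 and Ccr7. The difference in the share of kept cells ran from -0.0133 to 1.82 points with 1 library left out, and that of gated dendritic cells from -9.23 to 13.7 points, or -0.537 with no C1q UMI allowed. The cause of these shifts was not tested.

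With the replicate number as a block 0 genes passed. The numbers share no stated source, and same-numbered libraries deviated with a correlation of -0.32 over 5554 genes, or 0.13 over 5195 genes without keratin or collagen cells. A crossed pairing, chosen after seeing the data, gave 4 genes. Of 97 named genes tested, 1789 alternative values held 26 past the threshold and 112 with another sign among uncalled values, and no called value turned round. Pools of 4 mice, 2 libraries a group and 46 to 108 members a library limit the precision.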
